A study of Homo sapiens with 6 samples.

Results

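Chemokines are small secreted or membrane-anchored proteins that form gradients and draw leukocytes through G protein-coupled receptors. Epithelial cells make few of them at rest. Signals that activate NF-kB, such as TNF and IL-1, switch on CCL20, CCL2, CCL5 and CX3CL1, and interferons switch on CXCL10 and CXCL11. The genes described here are 8 leukocyte-attracting chemokines, CCL20, CCL28, CCL2, CCL5, CX3CL1, CXCL10, CXCL11 and CXCL16, out of 60504 genes in the deposited table. Each symbol matched 1 protein-coding row. The set was selected on the 3D against 2D result of these same libraries, so the members' values in that contrast are given as a description with no test.

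The cells were HCC827, an established human lung adenocarcinoma line with mutant EGFR. In the 3D group, 50000 cells from the monolayer were set in a 100 µL droplet of Matrigel, an extracellular matrix extract low in growth factors, and kept in 1 mL of medium for 12 to 16 days. The 2D group grew in uncoated flasks seeded with 1000000 cells in 10 mL of medium for 4 to 6 days between passages. Both groups received the same RPMI medium with fetal bovine serum, penicillin and streptomycin, and the labels name no engineered allele and no test drug. Cells were detached with TrypLE, and passaging of confluent 3D cultures also used Dispase with a ROCK inhibitor. There were 3 poly(A) libraries in 3D and 3 in 2D, all from the 1 line. Culture geometry, gel, time, seeding number, medium volume and the passaging reagents differ together between the groups and cannot be told apart. Whether RNA was taken from cells after dissociation is not stated. Whether replicates were separate cultures is not stated, so p-values reflect no more than the variation among these libraries, which may be technical.

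Values are TPM, which are scaled per transcript length and to a fixed library total, so levels can be compared between genes, while the depth of each library is unknown. Genes listed above 0 numbered 24926 to 26387 in 3D libraries and 23908 to 24583 in 2D libraries. All 12 epithelial markers examined passed 1 TPM on average, among them EPCAM at 567 to 589 TPM in 3D and 573 to 631 TPM in 2D. Of the 12, ELF3 was called higher (844 ± 137 TPM in 3D and 470 ± 59.7 TPM in 2D; limma, adjusted p = 0.0212) and KRT7 lower (698 ± 172 TPM in 3D and 1201 ± 31.4 TPM in 2D; limma, adjusted p = 0.0355; SD, n = 3 each). Both calls were lost with no filter and on leaving out any single library numbered 1 or 2 (limma, adjusted p up to 0.0857 for ELF3 and 0.116 for KRT7). The 12 summed to 6515 to 10631 TPM in 3D and 8696 to 11235 TPM in 2D. Of 16 leukocyte markers, CD2, FCGR3B and TYROBP were listed at 0 in every library and the pan-leukocyte gene PTPRC reached at most 0.25 TPM. PTPRC, CD3D, LYZ, CSF1R and LAPTM5 had every 3D library above every 2D library, none exceeding 1.65 TPM, and the other leukocyte markers overlapped. Of genes listed above 0 in at least 1 library, 16.9% had that order. CD14 and CD68 alone were tested and neither was called (limma, adjusted p = 0.835 and 0.388). The leukocyte list summed to 52.0 to 94.1 TPM in 3D and 73.1 to 101.9 TPM in 2D, most of it from CD68, a lysosomal gene that epithelial lines also transcribe. Of 9 fibroblast markers COL3A1 and THY1 were listed at 0 throughout, and the list summed to 7.30 to 12.2 TPM in 3D and 2.39 to 3.05 TPM in 2D, mostly COL1A1, which was called higher in 3D (5.26, 10.65 and 6.76 TPM in 3D, against 2.02, 2.37 and 2.50 TPM in 2D; limma, adjusted p = 0.017). That call was lost with no filter and on leaving out either 2D library numbered 1 or 2 or the 3D library numbered 2 (limma, adjusted p up to 0.0652). The 8 endothelial markers summed to 1.55 to 4.10 TPM in 3D and 0.74 to 1.48 TPM in 2D, with EMCN at 0 throughout. What part such transcripts have in the chemokine values was not tested. In these bulk samples, fewer expressing cells and less RNA per cell cannot be told apart.

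The sequence upstream of the start site is shown for CCL20, the member with the highest level in 3D, and for CXCL10 and CXCL11, neighbouring genes of the interferon-induced pair, because transcription factor motifs named with these genes can be read in it. RefSeq promoter windows on GRCh38.p14 were matched for 4 members, CCL20, CCL28, CXCL10 and CXCL11. The 250 bases before the annotated start are at chr2:227813592-227813841 on the plus strand for CCL20, at chr4:76023498-76023747 on the minus strand for CXCL10 and at chr4:76036071-76036320 on the minus strand for CXCL11. The starts of CCL20 and CXCL11 in RefSeq lie inside the longer gene spans of GENCODE 29. The windows are printed 5′ to 3′ in the direction of transcription. Capitals mark a match, on either strand, to the NF-kB consensus of 10 letters, the AP-1 motif TGANTCA, the interferon-stimulated response element core GAAANNGAA or the TATA box TATAAA.
CCL20: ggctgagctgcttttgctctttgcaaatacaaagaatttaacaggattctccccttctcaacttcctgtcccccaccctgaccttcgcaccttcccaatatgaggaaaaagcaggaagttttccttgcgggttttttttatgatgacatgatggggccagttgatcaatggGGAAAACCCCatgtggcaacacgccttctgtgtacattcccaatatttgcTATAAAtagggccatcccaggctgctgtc
CXCL10: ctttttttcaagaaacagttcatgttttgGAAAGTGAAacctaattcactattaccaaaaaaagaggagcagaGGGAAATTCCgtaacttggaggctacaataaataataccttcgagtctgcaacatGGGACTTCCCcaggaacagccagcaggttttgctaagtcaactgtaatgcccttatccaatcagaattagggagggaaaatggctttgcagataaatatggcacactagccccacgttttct
CXCL11: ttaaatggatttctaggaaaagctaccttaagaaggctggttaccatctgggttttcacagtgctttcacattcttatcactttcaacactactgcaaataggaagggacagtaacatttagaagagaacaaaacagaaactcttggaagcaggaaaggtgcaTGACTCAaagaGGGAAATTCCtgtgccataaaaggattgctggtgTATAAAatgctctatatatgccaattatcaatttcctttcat

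In CCL20 the NF-kB consensus matched on the opposite strand, 79 to 70 bases before the start, and a TATA box lay 29 to 24 bases before it. CXCL10 held 2 NF-kB matches, the farther at 177 to 168 bases and the nearer at 122 to 113 bases, with an interferon-stimulated response element core at 221 to 213 bases. In CXCL11 the NF-kB match at 76 to 67 bases had the same letters, GGGAAATTCC, as the farther match of CXCL10, and an AP-1 match lay beside it at 87 to 81 bases. CXCL11 also had a TATA box at 42 to 37 bases. Neither of the 2 RefSeq starts of CCL28 held any of the 4 motifs in its upstream window. Of 35116 promoter windows cut to the same 250 bases, 9.96% held the NF-kB consensus, 6.57% the AP-1 motif, 6.88% the response element core and 10.7% the TATA box. Such matches describe letters and do not show that a factor was bound.

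CCL20, the only ligand among chemokines of the receptor CCR6, which is carried by Th17 lymphocytes, B cells and immature dendritic cells, dominated the set in 3D. Its gene spans chr2:227805739-227817564 on the plus strand (GRCh38, GENCODE 29). CCL20 had 1158, 1250 and 827 TPM in the 3D libraries, against 8.68, 4.64 and 15.2 TPM in the 2D libraries. The groups lay far apart, the lowest 3D library being 54.4 times the highest 2D library. The mean was 1078 ± 222 TPM in 3D and 9.51 ± 5.34 TPM in 2D (SD, n = 3 each), a log2 fold change of 6.79 (SE 0.36) on the log2(TPM + 1) scale. By mean level CCL20 ranked 137 among all 60504 genes in 3D and 8287 in 2D. Replicate 3 stood apart in both groups, lowest of the 3D libraries and highest of the 2D libraries. Mitochondrial transcripts took 19.4, 19.4 and 12.3% of the TPM in 3D and 14.4, 15.7 and 17.5% in 2D, likewise lowest and highest in replicate 3, and their part in the result was not tested. The spread relative to the mean was 20.6% in 3D and 56.1% in 2D (coefficient of variation).

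**Figure D1:**
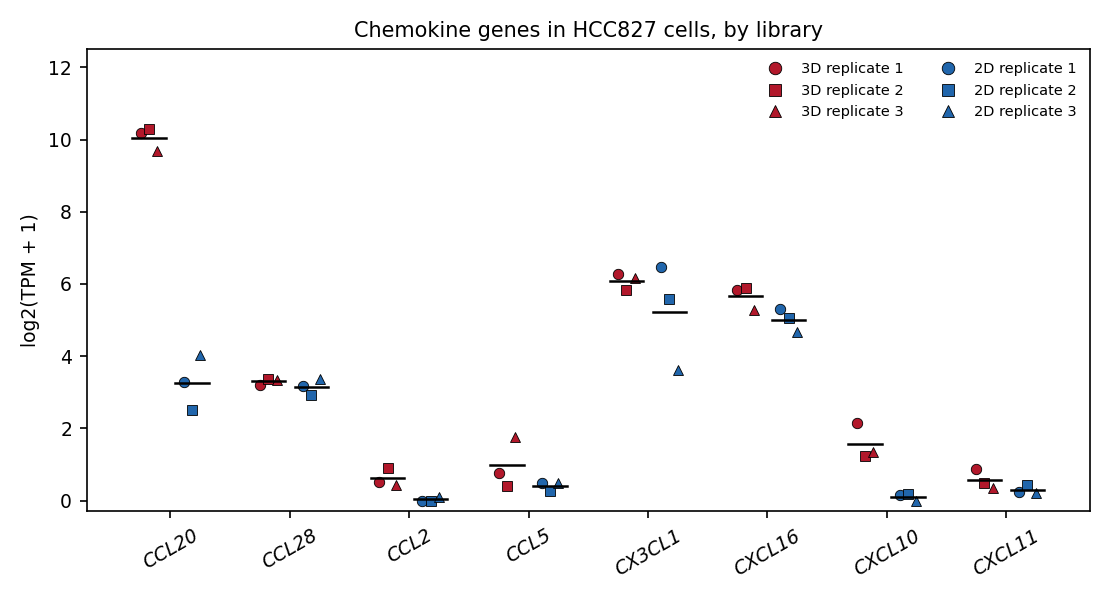
Level of each of the 8 chemokine genes as log2(TPM + 1), with 3D libraries in red to the left of 2D libraries in blue, 1 point per library and a bar at the group mean. CCL20 lies near 10 in 3D against values between 2 and 5 in 2D, while CCL28, CX3CL1, CXCL16, CCL5 and CXCL11 overlap between the groups.

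CCL28, a chemokine of mucosal epithelia that signals through CCR10 and CCR3, lies at chr5:43376645-43412391 on the minus strand and was at nearly the same level in each culture. Its values were 8.27, 9.29 and 9.16 TPM in 3D and 8.05, 6.55 and 9.39 TPM in 2D, and the highest library of all was a 2D library. The mean was 8.91 ± 0.56 TPM in 3D and 7.997 ± 1.421 TPM in 2D (SD, n = 3 each). The log2 fold change was 0.15 (SE 0.16) and its sign turned under quantile normalization, to -0.06.

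The remaining CC chemokines averaged under 1 TPM over the 6 libraries. CCL2, which draws monocytes through CCR2 and lies at chr17:34255218-34257203 on the plus strand, had 0.42, 0.86 and 0.36 TPM in 3D, while it was listed at 0 in replicates 1 and 2 and at 0.08 TPM in replicate 3 of 2D. The CCL2 groups did not overlap, but every value was under 1 TPM. CCL5, a ligand of CCR1 and CCR3 that draws T cells, lies on the same chromosome at chr17:35871491-35880793 on the minus strand and had 0.69, 0.32 and 2.39 TPM in 3D and 0.41, 0.21 and 0.39 TPM in 2D. Here the groups overlapped, and only 3D replicate 3 exceeded 1 TPM. An antisense gene that overlaps CCL5 did not exceed 0.22 TPM.

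CX3CL1 and CXCL16 are the 2 chemokines made as transmembrane proteins, with the chemokine domain on a mucin-like stalk that ADAM10 and ADAM17 can cut to release it. CX3CL1, also called fractalkine, lies at chr16:57372458-57385048 on the plus strand and had 77.1, 55.9 and 70.4 TPM in 3D and 86.9, 47.4 and 11.2 TPM in 2D. The highest and the lowest library of all 6 were 2D libraries, so the 3D values lay inside the 2D range. The 2D libraries differed among themselves by 7.76 times, and the means were 67.8 ± 10.8 TPM in 3D and 48.5 ± 37.9 TPM in 2D (SD, n = 3 each). The log2 fold change of 0.87 (SE 0.63) rested on 2D replicate 3, without which it was 0.06, and without both libraries numbered 3 it was 0.03. Without 2D replicate 1 it was 1.49.

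CXCL16, a ligand of CXCR6 and a scavenger receptor for oxidized lipids, lies at chr17:4733526-4739922 on the minus strand and had 55.9, 57.7 and 37.6 TPM in 3D and 38.5, 32.5 and 24.4 TPM in 2D. A pair of 3D libraries stood above every 2D library, and 3D replicate 3 was just below 2D replicate 1. The means were 50.4 ± 11.1 TPM in 3D and 31.8 ± 7.08 TPM in 2D (SD, n = 3 each), with a log2 fold change of 0.65 (SE 0.22). In each group replicate 3 was the lowest library. The MED11 gene overlaps CXCL16 on the other strand and had 39.0 to 54.4 TPM in 3D and 52.0 to 56.5 TPM in 2D. Sources used here do not give how strand was handled in counting, and how reads shared by this pair were divided is uncertain.

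CXCL10 and CXCL11 attract activated T cells through CXCR3 and are classic interferon-induced genes. They lie 10184 bases apart on the minus strand, CXCL10 at chr4:76021117-76023497 and CXCL11 at chr4:76033682-76041415. CXCL10 had 3.40, 1.35 and 1.52 TPM in 3D, against 0.11 and 0.14 TPM and a listed 0 in 2D. Its groups were apart at a low level. The log2 fold change was 1.45 (SE 0.30) with a pseudocount of 1, 3.56 with 0.1 and 0.47 with 5, so its size is set by the pseudocount. CXCL11 had 0.84, 0.40 and 0.27 TPM in 3D and 0.17, 0.36 and 0.15 TPM in 2D, and its groups overlapped. In 3D replicate 1 both genes were at their highest. Both are overlapped on the other strand by ART3, which reached at most 0.28 TPM, and a processed pseudogene on the same strand inside CXCL11 was listed at 0 in every library.

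Across the 8 genes, 3 had every 3D library above every 2D library, 5 overlapped and none lay below. Of 33924 genes listed above 0 in at least 1 library, 16.9% had every 3D library above every 2D library. Since this contrast chose the members, nothing is read from that difference. The limit for testing, 1 TPM averaged across the 6 libraries, was reached by 5 members, CCL20, CX3CL1, CXCL16, CCL28 and CXCL10. CXCL10 lay just inside at 1.09 TPM and dropped out on leaving out 3D replicate 1, CCL5 just outside at 0.735 TPM, and CCL2 and CXCL11 were lower. Over the 15042 tested genes the median log2 fold change was 0.12, and the members' values stand against it. That median was -0.01 with median-ratio scaling and -0.04 with quantile normalization.

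**Figure D2:**
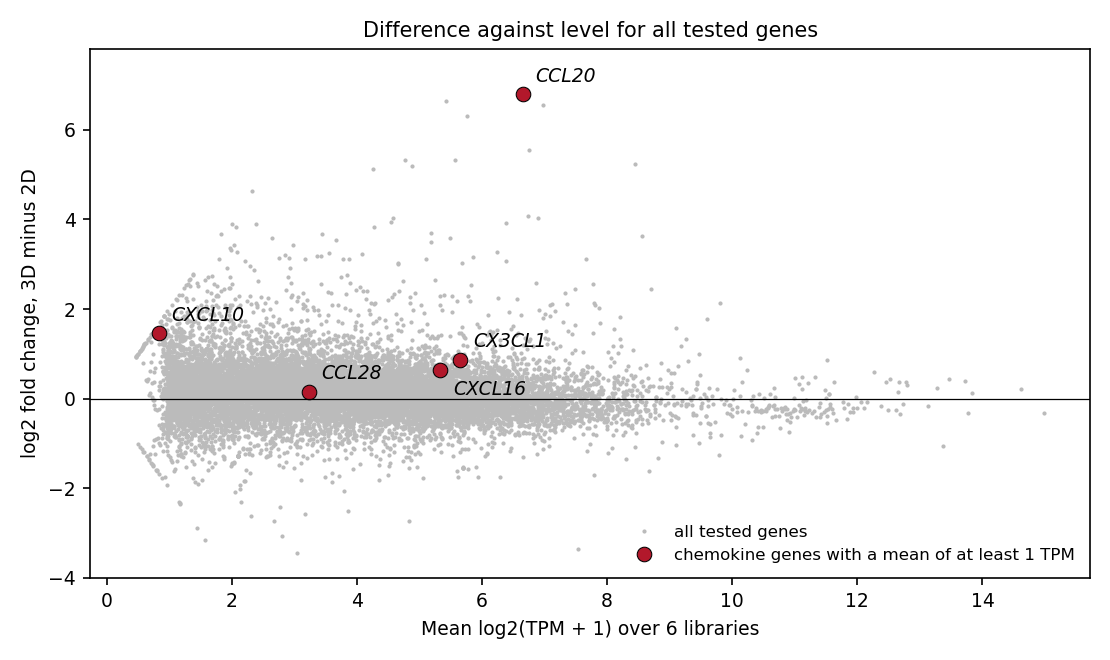
Log2 fold change (3D minus 2D) against the mean log2(TPM + 1) over 6 libraries for the 15042 tested genes in grey, with the 5 chemokine genes that passed 1 TPM in red. CCL20 sits at 6.79 at the top of the plot, and CCL28, at 0.15, lies within the bulk of genes.

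The order of levels differed between the cultures. In 3D it was CCL20, CX3CL1, CXCL16, CCL28, CXCL10, CCL5, CCL2 and CXCL11, and in 2D it was CX3CL1, CXCL16, CCL20, CCL28, CCL5, CXCL11, CXCL10 and CCL2. In 3D the library ranges of CX3CL1 and CXCL16 overlapped, as did each neighbouring pair from CXCL10 down. In 2D the overlapping neighbours were CX3CL1 with CXCL16, CCL20 with CCL28, CCL5 with CXCL11, and CXCL10 with CCL2. CCL20 was thus clear of the next gene in 3D, but not clear of CCL28 in 2D.

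Summed over the 8 genes, 3D libraries held 1304, 1375 and 949 TPM and 2D libraries held 143, 91.8 and 60.8 TPM. CCL20 made up 88.9 ± 1.85% of that sum in 3D and 12.0 ± 11.2% in 2D (SD, n = 3 each), where replicate 3 reached 25.0%. Without CCL20 the other 7 summed to 131 ± 13.3 TPM in 3D and 89.0 ± 44.3 TPM in 2D, and these ranges overlapped. CX3CL1 made up 5.80 ± 1.68% of the sum of 8 in 3D and 43.6 ± 22.3% in 2D. The ratio of CX3CL1 to CXCL16 was 1.41 ± 0.453 in 3D and 1.39 ± 0.900 in 2D. The table held 44 protein-coding genes with a CCL, CXCL, CX3CL1 or XCL symbol, and ligands under other symbols were not counted. These 44 summed to 5331 ± 936 TPM in 3D and 321 ± 78.9 TPM in 2D (SD, n = 3 each). Of the TPM of these 44, the 8 took 22.8 ± 3.57% in 3D and 31.1 ± 11.2% in 2D.

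**Figure D3:**
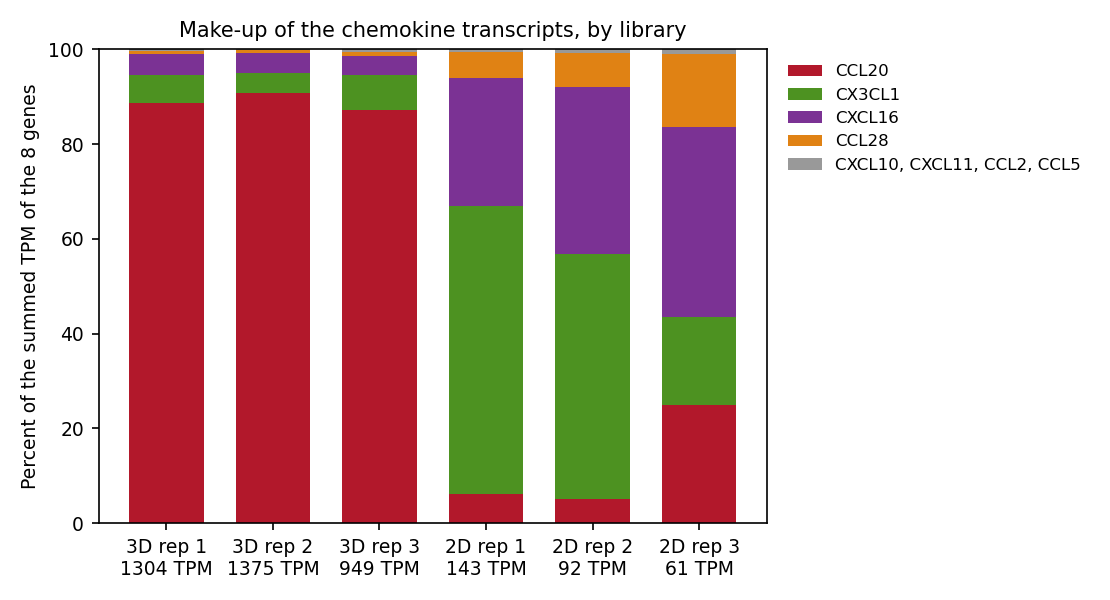
Share of the summed TPM of the 8 genes taken by each, in percent, for each library with its sum printed below, 3D libraries left of 2D libraries. CCL20 fills 87.2% to 90.9% of the 3D bars and 5.06% to 25.0% of the 2D bars, where CX3CL1 and CXCL16 take most of the rest.

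The profiles of the members over the 6 libraries were compared with 9971 protein-coding genes at a mean of at least 5 TPM, by Pearson's r of log2(TPM + 1). With 6 points that mostly reflect the culture, high values are common and are given as a description. Closest to CCL20 were ZNF713 (r = 0.999), TSC22D1 (0.998), RNF19A (0.998), POLA1 (0.998) and IL6 (0.997). Of these IL6, an inflammatory cytokine, had 124, 121 and 96.4 TPM in 3D and 1.83, 1.79 and 3.33 TPM in 2D. It was, like CCL20, lowest in replicate 3 among 3D libraries and highest in replicate 3 among 2D libraries. ZNF713, TSC22D1, RNF19A and POLA1 had the same order. The shared order follows from choosing these genes by their r with CCL20. Closest to CXCL10 were SLC25A14, SMN1 and GTF2B, with r of 0.992 to 0.999. Closest to CXCL16 were NUBPL, ZCCHC6 and CNST, with r of 0.994 to 0.996, and to CCL28 ACVR1B, U2AF2 and MOB1A, with r of 0.995 to 0.998. SMN1 has a near-identical paralog, so its level is uncertain.

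CX3CL1 had a profile unlike that of CCL20 (r = 0.37), set mainly by the spread within 2D. The 3 genes closest to it were WARS, a tryptophanyl-tRNA synthetase that interferon gamma induces, DYNLRB1, a dynein light chain, and SPRY2, a feedback inhibitor of receptor tyrosine kinase signalling, with r of 0.992 to 0.993. WARS had 274, 222 and 264 TPM in 3D and 297, 221 and 125 TPM in 2D. As with CX3CL1, the highest and the lowest library of WARS were both in 2D, replicate 1 and replicate 3. DYNLRB1 and SPRY2 had the same extremes, which follows from choosing these genes by their r with CX3CL1.

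**Figure D4:**
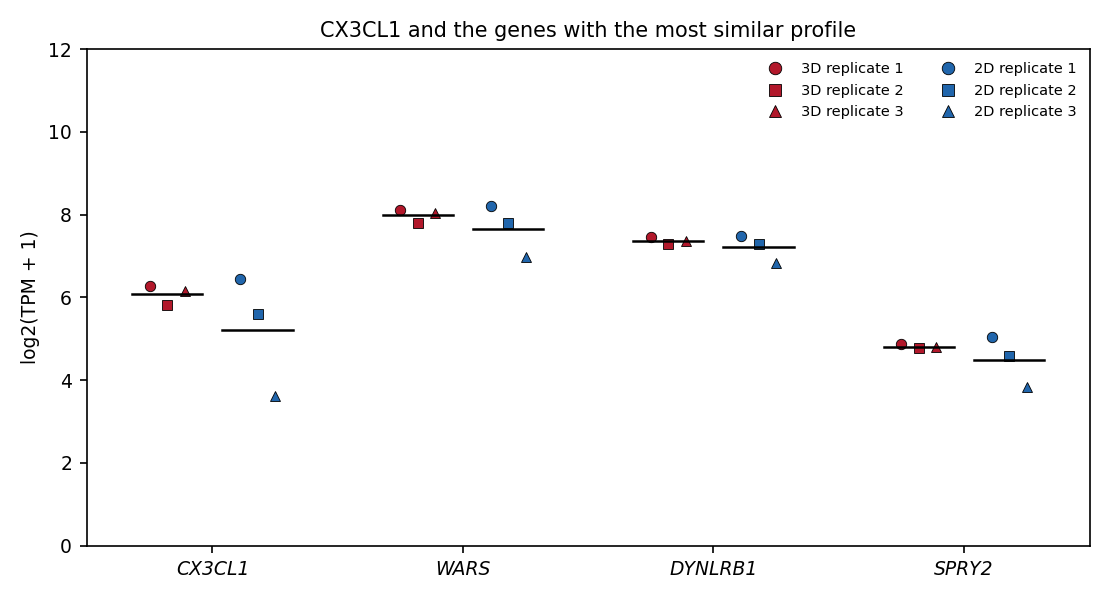
CX3CL1 and the 3 genes with the most similar profile as log2(TPM + 1), 3D libraries in red left of 2D libraries in blue, bars at the group means. In each gene 2D replicate 3 is the lowest of the 6 libraries and 2D replicate 1 the highest.

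The receptors of these ligands were hardly detected in HCC827 cells. CCR2 and CX3CR1 were listed at 0 in every library, and CCR6, CCR3 and CXCR6 did not exceed 0.19 TPM in any. CCR10, a receptor of CCL28, had 1.21, 1.36 and 1.06 TPM in 3D and 0.52, 0.49 and 0.72 TPM in 2D, and averaged under the limit for testing. ACKR3, an atypical receptor that binds CXCL11, had 0.52, 2.85 and 0.56 TPM in 3D and was listed at 0 in all 2D libraries. CXCR3, the receptor of CXCL10 and CXCL11, had 0.25, 0.35 and 0.27 TPM in 3D and 0.11 TPM and 2 listed zeros in 2D. CCR1 had 0.32, 0.28 and 0.86 TPM in 3D and 0.11, 0.06 and 0.04 TPM in 2D. Of 22 receptors examined, CXCR5 alone could be tested and was not called, with 4.88 ± 1.50 TPM in 3D and 4.47 ± 2.04 TPM in 2D (limma, adjusted p = 0.795).

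Other chemokine ligands outside the neutrophil-attracting group were also scarce. Of 27, 25 averaged under 1 TPM and neither of the others was called or had an unadjusted limma p under 0.05. CXCL17, a mucosal chemokine, had 31.2, 41.1 and 16.6 TPM in 3D and 20.9, 11.5 and 1.51 TPM in 2D, a log2 fold change of 1.71 (SE 0.74; limma, adjusted p = 0.162). Its groups overlapped, and as with CX3CL1 the lowest value was 2D replicate 3. Its log2 fold change was 0.80 without 2D replicate 3 and 2.36 without 2D replicate 1, not called in either case (limma, adjusted p = 0.199 and 0.0932). It was called without both libraries numbered 3, at 1.15 (limma, adjusted p = 0.0279). XCL1, a lymphocyte chemokine, had 7.97 ± 1.10 TPM in 3D and 6.81 ± 2.21 TPM in 2D (limma, adjusted p = 0.528).

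Genes that cut, modify or hold chemokines at the cell surface were more often measurable. Of 26 listed, 22 were tested, 5 rose, none fell and 17 were not called, where 10.2% of all tested genes were called higher and 2.12% lower. At an unadjusted limma p under 0.05, 9 of the 22 were higher and 1 was lower, beside 23.2% and 8.25% of all tested genes. The median log2 fold change of the 22 was 0.28. ADAM17 had 35.4, 35.7 and 28.7 TPM in 3D and 17.9, 17.1 and 24.6 TPM in 2D, and rose by a log2 fold change of 0.73 (SE 0.18; limma, adjusted p = 0.0377). ADAM10 had 101, 106 and 83.8 TPM in 3D and 66.5, 60.7 and 70.8 TPM in 2D, with a log2 fold change of 0.54 (SE 0.14; limma, adjusted p = 0.0433). In both sheddase genes the groups did not overlap, and replicate 3 was nearest to the other group. Both calls were lost with no filter, under median-ratio scaling or quantile normalization, with no trend, and on leaving out any single library numbered 1 or 2 (limma, adjusted p up to 0.137 for ADAM17 and 0.158 for ADAM10).

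SDC4, a heparan sulfate proteoglycan that binds chemokines, rose most in this list. It had 239, 218 and 222 TPM in 3D and 96.1, 106.8 and 97.8 TPM in 2D, with a log2 fold change of 1.17 (SE 0.12; limma, adjusted p = 0.00204), and was called under each alternative run. HS2ST1, which sulfates heparan sulfate, rose by 0.91 (SE 0.21) and the glypican GPC1 by 0.65 (SE 0.14) on the log2 scale. Their calls were lost with no filter, under either rescaling and on leaving out any single library numbered 1 or 2, and for GPC1 also 3D replicate 3 (limma, adjusted p up to 0.117 for HS2ST1 and 0.0933 for GPC1).

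Some genes listed for the NF-kB route to chemokine genes were higher in 3D. The list mixed upstream cytokines, receptors and kinases with NF-kB subunits and with inhibitors that NF-kB itself induces. Of 34 listed genes 33 were tested, and 8 rose, 1 fell and 24 were not called, beside 10.2% of all tested genes called higher and 2.12% called lower. Their median log2 fold change was 0.46. At an unadjusted limma p under 0.05, 16 of the 33 were higher and 1 was lower, beside 23.2% and 8.25% of all tested genes. The cytokine TNF had 24.1, 17.0 and 7.32 TPM in 3D, against 0.12 TPM in 2D replicate 2 and a listed 0 in the others. TNF rose by a log2 fold change of 3.90 (SE 0.38; limma, adjusted p = 0.0018), a size set by the pseudocount, being 6.80 with 0.1 and 1.98 with 5. The cytokine IL1A had 128, 100.0 and 28.1 TPM in 3D and 13.4, 10.5 and 3.26 TPM in 2D, a log2 fold change of 3.02 (SE 0.63; limma, adjusted p = 0.0249). For IL1A replicate 3 was the lowest in each group, and its call was lost with no filter and on leaving out 3D replicate 1, or replicate 2 of either group (limma, adjusted p up to 0.103).

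Among the further genes of that list that rose were the inhibitors TNFAIP3 and NFKBIA, which NF-kB itself induces, and IL1RAP, a shared subunit of IL-1 receptors. TNFAIP3 had 262, 178 and 110 TPM in 3D and 3.28, 2.34 and 4.57 TPM in 2D, a log2 fold change of 5.33 (SE 0.32; limma, adjusted p = 0.000241). NFKBIA had 1462, 1201 and 1317 TPM in 3D and 117, 82.5 and 122 TPM in 2D, a log2 fold change of 3.63 (SE 0.18; limma, adjusted p = 0.000144). NFKBIZ and NFKBIE were called higher too, with log2 fold changes of 2.12 and 1.31 (SE 0.12 and 0.17; limma, adjusted p = 0.000199 and 0.00518). IL1RAP rose by 2.33 (SE 0.24) on the log2 scale. IRAK1, a kinase of the same receptors, fell, with 113 ± 8.80 TPM in 3D and 165 ± 10.2 TPM in 2D (SD, n = 3 each). Its log2 fold change was -0.55 (SE 0.12), at an adjusted p of 0.0307 in limma. The IRAK1 call was lost with no filter and on leaving out any single library numbered 1 or 2 (limma, adjusted p up to 0.135). The subunit RELA averaged 55.0 ± 5.84 TPM in 3D and 44.0 ± 4.74 TPM in 2D, and NFKB1 averaged 23.8 ± 4.50 TPM in 3D and 14.6 ± 2.61 TPM in 2D (SD, n = 3 each). Neither was called, with limma adjusted p of 0.17 and 0.0629, although in both genes every 3D library lay above every 2D library. NFKB1 was called on leaving out 3D replicate 3 (limma, adjusted p = 0.0366) and without both libraries numbered 3 (limma, adjusted p = 0.0254). Of the other subunits, REL was called higher, with 10.8, 10.7 and 5.55 TPM in 3D and 2.18, 2.15 and 2.99 TPM in 2D. The log2 fold change of REL was 1.50 (SE 0.26; limma, adjusted p = 0.0149). NFKB2 and RELB overlapped between the groups and were not called (limma, adjusted p = 0.237 and 0.186). The list was written with earlier results of these data known and is no independent evidence of its direction.

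Of 30 genes listed for the interferon route, 23 were tested, and 3 rose, 1 fell and 19 were not called. Their median log2 fold change was 0.34. The 3 of 23 stand beside 10.2% of all tested genes called higher and the 1 of 23 beside 2.12% called lower. At an unadjusted limma p under 0.05, 9 of the 23 were higher and 1 was lower, beside 23.2% and 8.25% of all tested genes. No excess is read from these counts. Of the interferon genes, IFNE, an epithelial type I interferon, had 1.24, 1.83 and 0.51 TPM in 3D and 0.80, 1.35 and 0.65 TPM in 2D, and was not called (limma, adjusted p = 0.763). IFNB1 reached at most 0.15 TPM and IFNG 0.05 TPM in any library. IFNL1 had 0.21, 0.60 and 0.69 TPM in 3D, while in 2D it was listed at 0 in replicates 1 and 2 and at 0.07 TPM in replicate 3. The IFNL1 groups did not overlap, but every value was under 1 TPM. IRF1, a transcription factor induced by interferon gamma and by NF-kB, had 144, 99.6 and 114 TPM in 3D and 24.7, 19.5 and 33.7 TPM in 2D. Its groups were apart, with a log2 fold change of 2.17 (SE 0.22; limma, adjusted p = 0.00229), and within 3D it was, like CXCL10, highest in replicate 1. In 2D IRF1 was highest in replicate 3, where CXCL10 was listed at 0. IFNGR1, the ligand-binding chain of the interferon gamma receptor, rose by 1.42 (SE 0.16) on the log2 scale. SOCS1, an inhibitor of JAK kinases, rose by 0.86 (SE 0.21), and IRF3, a sensor-activated factor, fell by 0.53 (SE 0.12) on the log2 scale. SOCS1 lost its call under 9 of 15 alternatives and IRF3 under 8 of 16, leaving out any single library numbered 1 or 2 among them, and also 3D replicate 3 for SOCS1 and 2D replicate 3 for IRF3 (limma, adjusted p up to 0.138 for SOCS1 and 0.122 for IRF3).

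**Figure D5:**
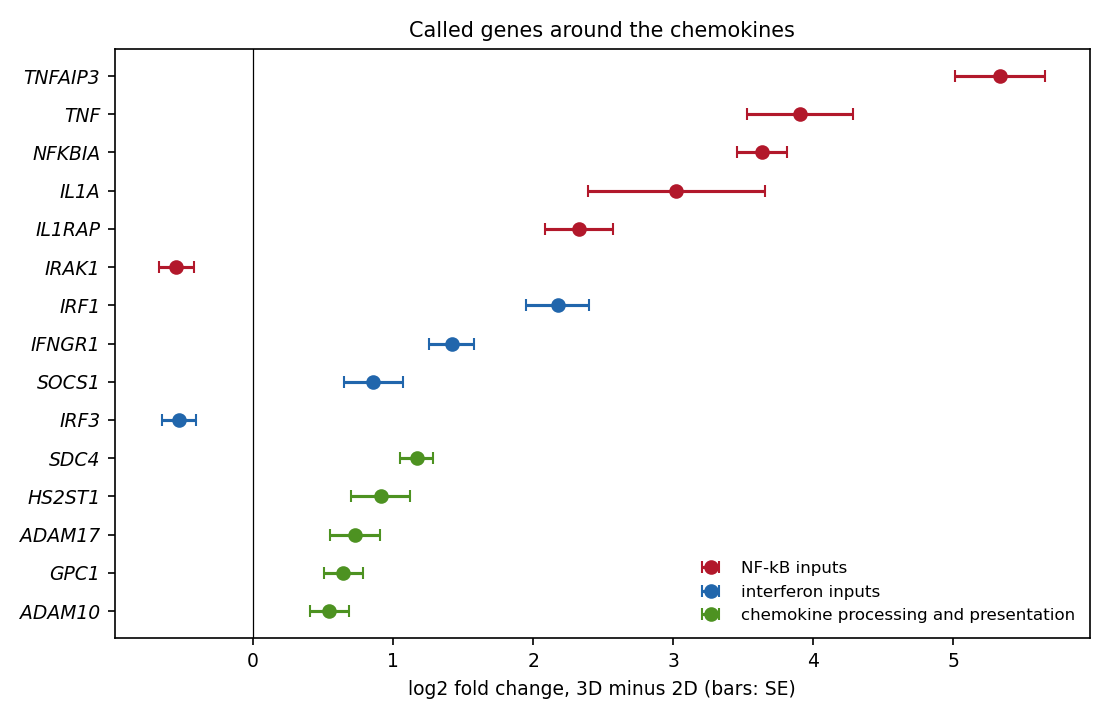
Log2 fold change, 3D minus 2D, with its SE (bars) for the called genes named by size in each list, grouped as NF-kB inputs, interferon inputs, and chemokine processing and presentation. REL, NFKBIZ and NFKBIE are not shown, and the NF-kB group includes the inhibitors TNFAIP3 and NFKBIA. TNFAIP3 lies farthest to the right, at 5.33 with a pseudocount of 1, IRAK1 and IRF3 lie below 0, and the sheddases ADAM17 and ADAM10 lie between 0.5 and 1.

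Over the lists of receptors, other ligands, processing genes, NF-kB inputs and interferon inputs together, 81 of 139 genes were tested, 16 rose, 2 fell and 63 were not called, beside the same 10.2% higher and 2.12% lower over all tested genes. Leaving out 3D replicate 1, or replicate 2 of either group, gave 9 that rose each time, and no filter gave 10. Leaving out any single library numbered 1 or 2 gave none called lower, and leaving out 2D replicate 3 gave 1.

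Genes beside the members on the chromosome were examined as the 2 nearest protein-coding genes on each side in GENCODE 29. Of 28 such genes that are not members, 12 were tested, 2 rose, none fell and 10 were not called, beside 10.2% called higher and 2.12% called lower over all tested genes. At an unadjusted limma p under 0.05, 4 were higher and 3 lower, beside 23.2% and 8.25% of all tested genes. CCL20 on chromosome 2 is isolated, its closest neighbour DAW1 lying 53489 bases away, with 0.45, 0.58 and 1.00 TPM in 3D and a listed 0 in all 2D libraries. CXCL9, another CXCR3 ligand, lies 13628 bases from CXCL10 and did not exceed 0.04 TPM. The chemokine genes CCL7 and CCL11 beside CCL2 on chromosome 17 were listed at 0 in every library, and CCL22 and CCL17 beside CX3CL1 on chromosome 16 did not exceed 1 TPM. The neighbours that rose were HMGCS1, a cholesterol synthesis enzyme 63132 bases from CCL28, and SCARB2, a lysosomal membrane protein 117317 bases from CXCL11. HMGCS1 had 96.0, 60.5 and 99.3 TPM in 3D and 35.8, 29.6 and 31.4 TPM in 2D, a log2 fold change of 1.35 (SE 0.21; limma, adjusted p = 0.00992). SCARB2 had 74.9, 91.7 and 76.0 TPM in 3D and 50.3, 47.6 and 38.4 TPM in 2D, a log2 fold change of 0.82 (SE 0.15; limma, adjusted p = 0.0172). In both genes the groups did not overlap. The HMGCS1 call was lost on leaving out 3D replicate 1 (limma, adjusted p = 0.0506), and the SCARB2 call on leaving out 3D replicate 1, or replicate 2 of either group (limma, adjusted p up to 0.0719).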

How the data were processed

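The authors deposited 1 table of TPM for 60504 genes and 6 libraries, rounded to 2 decimals. Per the labels' protocols, DNase-treated RNA with an integrity number above 9 was poly(A)-selected, prepared with a directional kit and sequenced as single-end reads of 75 nt. The submitters' processing notes name RSEM 1.3.1, STAR 2.7.0d, cutadapt 2.3 and the build hg38. Sources used here give no annotation, strand setting or filter. TPM keeps no depth, and a 0 says no more than that the table lists a gene at 0.

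Groups came from the sample titles. All genes averaging 1 TPM or more were fitted together on log2(TPM + 1) with limma 3.58.1 (lmFit, eBayes with trend) in R 4.3.3, 3D against 2D, two-sided, and p-values of the 15042 genes were adjusted by Benjamini-Hochberg and called at 0.05. Changes of genes at low TPM are understated by the pseudocount. The fit was tested on simulated data. An exact test of 3 against 3 cannot give p under 0.1 and was not used.

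The members, the gene lists and the tests were chosen with earlier results of these data known. Named were all 8 members, up to 5 called genes per list in the commoner direction and 2 in the other by size, the most abundant tested genes of a list with none called, the receptors and sheddases of the members, the nearest neighbours and the genes with the closest profiles. Markers, RELA, NFKB1, REL, NFKB2, RELB, NFKBIZ, NFKBIE and the interferon genes were named after their values were seen. Some items of the fixed lists are not reported here. Coordinates are from GENCODE 29 (GRCh38) and promoter sequences from RefSeq (GRCh38.p14). Plots used Python 3.11.15 and matplotlib 3.10.9. Alternatives were other pseudocounts, filters, scalings and variance priors, the replicate number as a block, and libraries left out.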

Additional observations from a re-analysis of the deposited data

How the results depend on the processing

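Of 15042 genes, 1536 were called higher and 319 lower in 3D, 82.8% of the calls being higher. The numbers called higher and lower were 729 and 86 with no filter, 971 and 612 with median-ratio scaling (61.3% higher), 869 and 576 with quantile normalization (60.1% higher), 2464 and 1356 without both libraries numbered 3, and 1479 and 395 with the replicate block. With 1 library left out they ranged from 367 to 1607 higher and from 29 to 563 lower. Among the genes of the 5 lists, 16 were called higher and 2 lower. These became 10 and 1 with no filter, 1 lower with no trend, 0 lower with the replicate block, and 4 lower without both libraries numbered 3. With 1 library left out they ranged from 9 to 19 higher and from 0 to 3 lower.

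The replicate numbers were not taken to pair the samples, since same-numbered libraries deviated together with correlations of 0.10, 0.04 and 0.19 for numbers 1, 2 and 3. The deviations of 3D replicate 1 correlated more with 2D replicate 2 (0.13) than with 2D replicate 1. With the replicate block CXCL17 was called (limma, adjusted p = 0.0346), and the calls of ADAM17, ADAM10, IRAK1, SOCS1 and IRF3 were lost (limma, adjusted p 0.0512 to 0.0713). The log2 fold change of CCL20 stayed between 6.27 and 7.35, that of CXCL16 between 0.47 and 0.84, that of CX3CL1 between 0.03 and 1.49, and that of CCL28 between -0.06 and 0.26 over the alternatives run. CCL2, CCL5 and CXCL11 averaged below 1 TPM and had no value to compare, and CXCL10 had none with a mean of at least 5 TPM or without 3D replicate 1. Depth is unknown, so what can be read from values under 1 TPM cannot be stated.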
